A study of Mus musculus with 4 samples.

Results

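The NRF2 and glutathione defence genes described here are 10 genes, chosen by name and found by symbol among the 34866 gene rows of the deposited table: Slc7a11, Gclc, Gclm, Gpx2, Gsta4, Gstm1, Txnrd1, Srxn1, Nqo1 and Hmox1. Their transcripts were measured by RNA sequencing of gastric mucosa taken at the corpus of the mouse stomach. There were 2 libraries from Muc6 +/+ mice (wild type, the +/+ pair) and 2 from Muc6 -/- mice (knockout, the -/- pair), and the series asks how loss of this gel-forming gland mucin relates to gastric carcinogenesis. Strain, age, sex, any treatment and how the allele was made were not stated in the labels, nor whether each library came from its own animal. P-values therefore measure the spread between these libraries, which may be technical.

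NRF2, encoded by Nfe2l2, is a transcription factor that KEAP1 marks for destruction in resting cells. Oxidants and electrophiles release it, and with a small MAF partner it binds antioxidant response elements in the genes of glutathione synthesis, thioredoxin recycling and detoxication. Glutathione is the main soluble thiol of cells, used by peroxidases to reduce peroxides and by transferases to conjugate electrophiles, and the stomach lining makes it in quantity.

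Total counts ranged from 20327745 to 27946423 per library. Muc6 (minus strand of chromosome 7, 141633456 to 141655319, mm10) was counted 8542 and 6000 times in the +/+ pair but 0 and 10 times in the -/- pair, which follows the labels. The tissue carried corpus markers: the 11 parietal genes, which include the proton pump genes Atp4a and Atp4b, summed to 18220 and 17639 CPM (counts scaled to the library size) in the +/+ pair versus 946 and 5872 CPM in the -/- pair. The antral markers Pdx1 and Gast summed to 68.8 CPM in knockout 1. The sum was 0.323, 0.0521 and 2.52 CPM in wild type 1, wild type 2 and knockout 2. Of these 2 genes only Pdx1 had enough counts to be tested. The 4 Y-linked genes measured summed to 136 and 121 CPM in the +/+ pair versus 1.43 and 2.44 CPM in the -/- pair. Genotype therefore cannot be told apart from Y-linked expression, or from a difference in sex, in any comparison below. In such bulk samples, fewer cells of a type and less RNA per cell cannot be told apart either.

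The 10 genes did not share a direction. Gpx2 and Gstm1 were higher in both knockout libraries, by 3.24-fold and 2.99-fold in the mean, Nqo1 and Slc7a11 were lower in both, and the values of the other 6 overlapped between the genotypes. All 10 passed the filter on low counts and entered the fit over 14067 genes. None reached an adjusted p below 0.05 in edgeR (quasi-likelihood test), nor did any other gene (0% called), although 2236 genes had an unadjusted p below 0.05 (9.22% of genes higher and 6.68% lower). Among these were 2 higher members, Gpx2 and Gstm1, and 1 lower member, Nqo1. DESeq2, which called 946 of its 14380 genes (6.58%, with 3.84% higher and 2.74% lower), called Gpx2 and Gstm1 and no other member, and limma with voom called 0 genes.

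Genotypes did not overlap for 4 of the 10 members, 2 higher and 2 lower, against 26.3% of all genes tested that were higher without overlap and 23.8% that were lower. In either direction, 50.1% of all genes tested did not overlap. When the 20 most abundant genes were left out of the library sizes, Gclm joined the members lower without overlap, 3 in all. The median log2 fold change of the members was -0.0083, beside -0.0017 over all genes tested, and single members ran from -1.21 to 1.69.

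**Figure D1:**
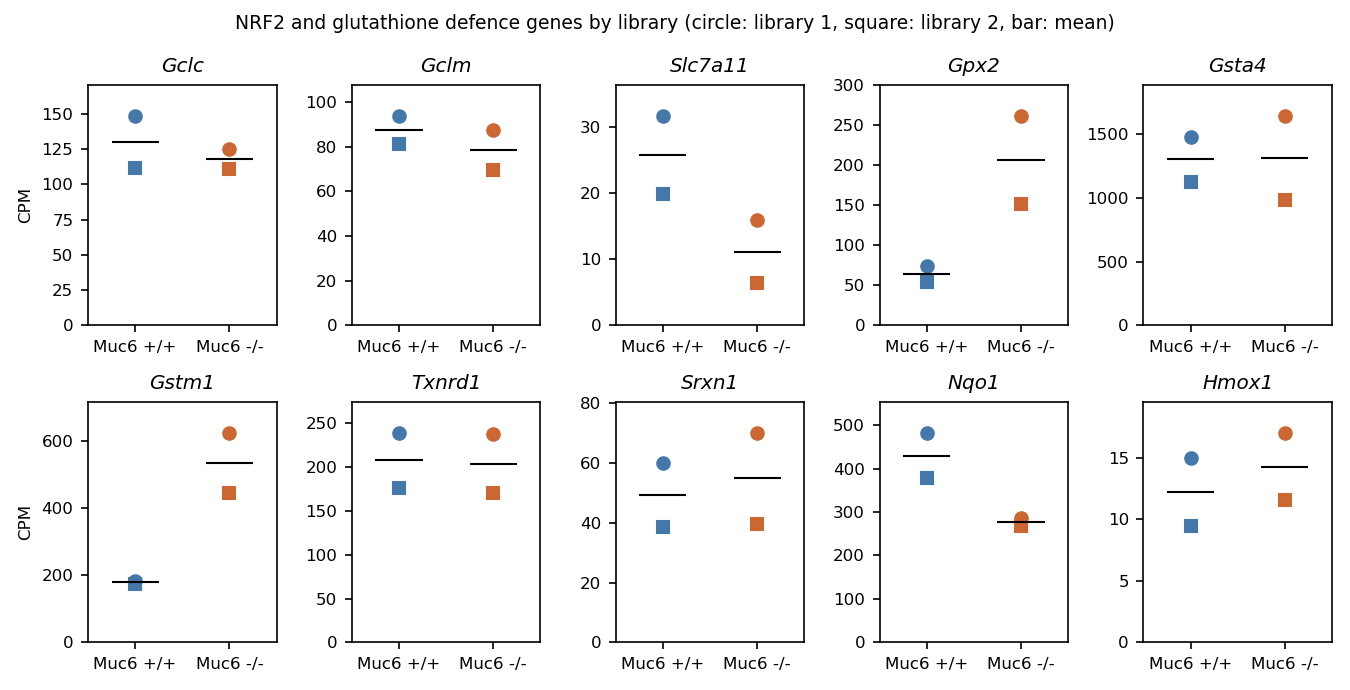
Normalised read counts (CPM, linear axes from 0) of each member in the 2 Muc6 +/+ and 2 Muc6 -/- libraries, with circles for library 1, squares for library 2 and bars for the mean. Gpx2 and Gstm1 lie higher in both knockout libraries, Nqo1 and Slc7a11 lower, and within each genotype the circle lies above the square in all 10 panels.

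The stretch upstream of a gene is one place where NRF2 can act, so the 250 bases before each RefSeq start site (GRCm38.p6) were read for 7 members with an entry, at 10 start sites in all. The core of the antioxidant response element was searched as TGACNNNGC and the AP-1 site, which it can contain, as TGANTCA, on both strands. The core was present in 10.2% and the AP-1 site in 6.75% of 32851 such windows of all genes. It was found in Gclm at position -134 from the start site and in Txnrd1 at -92 from the second of its 3 start sites, in both as the reverse strand (GCACCGTCA and GCTTTGTCA). Srxn1 held no match to TGACNNNGC there but had 2 AP-1 sites, at -102 and -45. The site at -45 is followed by gc, so TGAGTCAgc differs from the searched core only by a G in place of its C. These 3 genes are shown because they are the members with a match, and all 3 overlapped between the genotypes. No match lay in the windows of Gpx2, Gstm1, Nqo1 or Slc7a11, the 4 members that separated the genotypes. Sequence outside the 250 bases and other forms of the core were not searched, so the lack of a match does not show that a gene lacks the element. Gpx2 and the first start site of Gstm1 are shown as the higher ones. Sequences run 5′ to 3′ on the gene's strand, with matches in capitals.
Gclm (chr3:122245307-122245556, plus strand): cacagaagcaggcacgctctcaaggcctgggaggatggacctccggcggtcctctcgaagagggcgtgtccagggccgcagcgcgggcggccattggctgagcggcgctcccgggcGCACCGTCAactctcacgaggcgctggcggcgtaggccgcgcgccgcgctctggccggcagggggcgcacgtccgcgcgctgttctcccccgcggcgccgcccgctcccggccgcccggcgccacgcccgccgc
Txnrd1 (chr10:82858956-82859205, plus strand): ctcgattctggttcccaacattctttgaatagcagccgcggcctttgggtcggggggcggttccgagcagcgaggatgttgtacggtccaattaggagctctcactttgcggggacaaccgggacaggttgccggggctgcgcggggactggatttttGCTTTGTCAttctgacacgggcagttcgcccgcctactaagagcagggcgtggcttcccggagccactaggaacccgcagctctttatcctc
Srxn1 (chr2:152105274-152105523, plus strand): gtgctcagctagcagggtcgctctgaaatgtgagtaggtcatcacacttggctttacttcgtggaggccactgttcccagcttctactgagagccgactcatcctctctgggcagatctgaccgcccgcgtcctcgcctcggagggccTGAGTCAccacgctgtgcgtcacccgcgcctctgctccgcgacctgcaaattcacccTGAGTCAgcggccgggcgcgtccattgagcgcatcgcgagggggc
Gpx2 (chr12:76795555-76795804, minus strand): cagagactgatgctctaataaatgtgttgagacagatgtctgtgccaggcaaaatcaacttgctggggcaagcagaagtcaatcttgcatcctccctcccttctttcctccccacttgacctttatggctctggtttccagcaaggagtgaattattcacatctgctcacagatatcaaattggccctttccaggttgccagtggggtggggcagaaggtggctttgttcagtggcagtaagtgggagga
Gstm1 (chr3:108017974-108018223, minus strand): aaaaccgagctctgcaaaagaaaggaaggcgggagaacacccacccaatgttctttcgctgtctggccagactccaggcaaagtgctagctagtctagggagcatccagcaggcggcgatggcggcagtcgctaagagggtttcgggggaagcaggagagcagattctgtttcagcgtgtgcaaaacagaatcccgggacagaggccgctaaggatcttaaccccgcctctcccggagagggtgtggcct

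Supply of glutathione starts with cystine uptake. Slc7a11 (ENSMUSG00000027737.10, minus strand of chromosome 3, 49892526 to 50443614) encodes xCT, the light chain of the cystine-glutamate exchanger. It stood at 31.7 and 19.8 CPM in the +/+ pair versus 15.9 and 6.40 CPM in the -/- pair, from 786, 381, 355 and 155 counts. Both knockout values lay under both wild-type values, and the gap between wild type 2 and knockout 1 was smaller than the gap within either genotype. The mean was 2.31-fold lower in knockout (log2 fold change -1.21 ± 0.53, SE, n = 2 libraries each; adjusted p = 0.373 in edgeR). Without knockout 1 the log2 fold change was -2.05, and without knockout 2 it was -0.74. Its heavy-chain partner Slc3a2 stood at 148 and 135 CPM in the +/+ pair versus 56.8 and 104 CPM in the -/- pair, lower without overlap as well. Knockout 1 was the lower library for Slc3a2 and knockout 2 for Slc7a11. The count ratio of Slc7a11 to Slc3a2, which no scaling enters, was 0.214 and 0.147 in the +/+ pair versus 0.280 and 0.0617 in the -/- pair, so the genotypes overlapped in it.

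Glutamate-cysteine ligase carries out the rate-limiting step of glutathione synthesis. Its catalytic subunit Gclc (ENSMUSG00000032350.9, plus strand of chromosome 9, 77754535 to 77794485) stood at 149 and 111 CPM in the +/+ pair versus 125 and 111 CPM in the -/- pair. The modifier subunit Gclm (ENSMUSG00000028124.15, plus strand of chromosome 3, 122245557 to 122270732) stood at 93.8 and 81.1 CPM against 87.6 and 69.7 CPM. Both genes overlapped between the genotypes, and their log2 fold changes of -0.14 ± 0.21 and -0.15 ± 0.19 (SE, n = 2 libraries each) were smaller than their errors. The Gclc to Gclm count ratio was 1.58 and 1.37 in the +/+ pair versus 1.43 and 1.59 in the -/- pair, again overlapping. Without wild type 1 the Gclc value turned to 0.091.

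Among the enzymes that use glutathione, Gpx2 (ENSMUSG00000042808.8, minus strand of chromosome 12, 76792333 to 76795554) encodes a selenium-dependent peroxidase of the gut epithelium. It stood at 73.4 and 54.2 CPM in the +/+ pair versus 262 and 151 CPM in the -/- pair, from 1819, 1041, 5833 and 3666 counts. Knockout 1 was 4.10-fold and knockout 2 was 2.37-fold above the wild-type mean, and the knockout mean was 3.24-fold higher. The fitted log2 change was 1.69 ± 0.36 (SE, n = 2 libraries each); edgeR gave an adjusted p of 0.226 and DESeq2 one of 6.7e-04. Without knockout 1 it was 1.20, and without knockout 2 it was 1.99. The fit without knockout 2 has 1 knockout library, the one with the higher sums of antral and squamous markers. That library is assumed to vary like the wild-type pair. Over all alternatives the adjusted p of Gpx2 ran from 6.7e-04 (DESeq2) to 0.738. Gpx2 lies inside Fntb on the other strand, which had 909 counts over the 4 libraries, and whether the counting used strand is not given in the sources used here. Gpx1, the ubiquitous cytosolic peroxidase of the same family, stood at 300 and 242 CPM against 552 and 285 CPM. The count ratio of Gpx2 to Gpx1 was 0.245 and 0.224 in the +/+ pair versus 0.474 and 0.531 in the -/- pair, which do not overlap.

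Gstm1 (ENSMUSG00000058135.12, minus strand of chromosome 3, 108012255 to 108017973), a mu-class glutathione transferase gene, had the smallest p of the 10. It stood at 184 and 173 CPM in the +/+ pair versus 623 and 445 CPM in the -/- pair, from 4563, 3318, 13891 and 10780 counts. Wild-type values were close together and both knockout values far above them, with a mean 2.99-fold higher. The fitted log2 change was 1.58 ± 0.25 (SE, n = 2 libraries each); edgeR gave an adjusted p of 0.209 and DESeq2 one of 3.2e-06. It was 1.27 without knockout 1, and without knockout 2 it was 1.75 with an adjusted p of 0.0291 by edgeR, under the same assumption about the lone knockout library. Over all alternatives the adjusted p of Gstm1 ran from 3.2e-06 (DESeq2) to 0.738. Gsta4 (ENSMUSG00000032348.6, plus strand of chromosome 9, 78182774 to 78209349), an alpha-class transferase gene whose product conjugates the lipid peroxidation product 4-hydroxynonenal, stood at 1483 and 1124 CPM against 1645 and 983 CPM. Knockout 1 and 2 lay on either side of both wild-type values (log2 fold change 0.012 ± 0.37). Its sign turned with relative log expression factors, by limma with voom, without a count filter and without single libraries, so no direction is given. It starts 388288 bases beyond the end of Gclc. The count ratio of Gstm1 to Gsta4 was 0.124 and 0.154 in the +/+ pair versus 0.379 and 0.453 in the -/- pair, without overlap between the genotypes.

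Beside Gpx2 and Gstm1, the list of mucous neck cells and spasmolytic polypeptide-expressing metaplasia (Tff2, Gkn3, Cd44, Wfdc2, Cftr, Aqp5 and Clu) summed to 2365 and 1708 CPM in the +/+ pair versus 16132 and 10740 CPM in the -/- pair, all 7 genes higher without overlap. The cell cycle list of 7 genes summed to 271 and 209 CPM against 493 and 431 CPM, again with all 7 higher. Squamous forestomach markers summed to 0.847 and 0.260 CPM against 156 and 13.0 CPM, with Trp63 and Krtdap at 0 counts in all 4 libraries. The part of these cells in the Gpx2 and Gstm1 values was not tested.

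The thioredoxin arm works beside glutathione. Txnrd1 (ENSMUSG00000020250.10, plus strand of chromosome 10, 82833951 to 82897712), the cytosolic selenoprotein that reduces thioredoxin with NADPH, stood at 238 and 176 CPM in the +/+ pair versus 237 and 170 CPM in the -/- pair. The pair of values was nearly the same in each genotype (log2 fold change -0.028 ± 0.28, SE, n = 2 libraries each), and its sign turned to 0.017 when the 20 most abundant genes were left out of the library sizes. Srxn1 (ENSMUSG00000032802.8, plus strand of chromosome 2, 152105516 to 152111376), sulfiredoxin, which repairs overoxidised peroxiredoxins, stood at 59.8 and 38.7 CPM against 69.9 and 39.6 CPM. The genotypes overlapped here too (0.15 ± 0.38), and the value was -0.35 without knockout 1 and -0.13 without wild type 2. In both genes the spread between libraries of a genotype was larger than the difference between genotype means.

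Nqo1 (ENSMUSG00000003849.8, minus strand of chromosome 8, 107388225 to 107403206) encodes a quinone reductase and is the textbook NRF2 target. It stood at 481 and 377 CPM in the +/+ pair versus 285 and 267 CPM in the -/- pair, from 11934, 7240, 6364 and 6466 counts. Both knockout values were below both wild-type values, and the mean was 1.55-fold lower. The fitted log2 change was -0.64 ± 0.22 (SE, n = 2 libraries each); edgeR gave an adjusted p of 0.300 and DESeq2 one of 0.0808. Leaving out each library in turn gave -0.81 to -0.44. Beside the lower Nqo1 and Slc7a11, all 11 parietal genes were lower without overlap, with the sums given above. Knockout 1 had the lower parietal sum and the higher Nqo1 and Slc7a11 values of the -/- pair. Surface pit markers summed to 121500 and 80768 CPM in the +/+ pair versus 70673 and 54090 CPM in the -/- pair. Of 6 pit genes tested, 4 were lower without overlap and 2 overlapped. The part of either cell type in the Nqo1 and Slc7a11 values was not tested. Within each library the count ratio of Gstm1 to Nqo1 was 0.382 and 0.458 in the +/+ pair versus 2.18 and 1.67 in the -/- pair, and that of Gpx2 to Nqo1 was 0.152 and 0.144 against 0.917 and 0.567. Scaling does not enter these ratios. Since Gstm1 and Gpx2 were higher and Nqo1 lower without overlap, neither ratio could overlap between the genotypes, and they add no separate evidence.

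Hmox1 (ENSMUSG00000005413.8, plus strand of chromosome 8, 75093621 to 75100589), the inducible haem oxygenase, stood at 15.0 and 9.43 CPM in the +/+ pair versus 17.0 and 11.6 CPM in the -/- pair. The values interleaved (log2 fold change 0.22 ± 0.34, SE, n = 2 libraries each), with -0.12 without knockout 1 and -0.080 without wild type 2. Macrophages that clear red cells are a known source of Hmox1. The 12 macrophage markers, of which Csf1r, C1qa and Lyz2 are defining ones, summed to 16.9 and 101 CPM in the +/+ pair versus 14.8 and 44.4 CPM in the -/- pair. In each genotype Hmox1, like the other 9 members, was higher in the library where this sum was lower. The part of macrophages in the Hmox1 values was not tested.

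**Figure D2:**
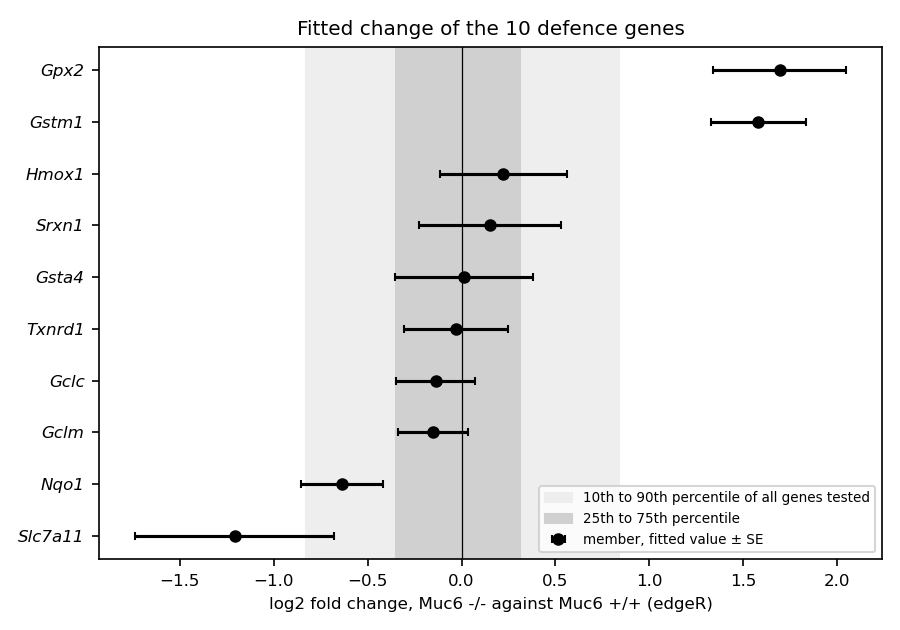
Fitted log2 fold change of each member in Muc6 -/- against Muc6 +/+ libraries (points, with bars for the standard error), over grey bands for the 10th to 90th and 25th to 75th percentiles of the 14067 genes tested. Gpx2 at 1.69 and Gstm1 at 1.58 lie above the outer band, Slc7a11 at -1.21 below it, and 6 members lie inside the inner band.

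Levels were also set side by side per kilobase of annotated exon, a scale on which genes can be compared. Gsta4 was highest in all 4 libraries, at 1171 and 887 CPM per kilobase in wild type and 1299 and 776 in knockout. In wild type the next were Nqo1 at 310 and 243 and Gstm1 at 125 and 117 CPM per kilobase. In knockout Gstm1, at 423 and 302, stood above Nqo1, at 184 and 172 CPM per kilobase. Gpx2 went from 22.8 and 16.8 CPM per kilobase in wild type, overlapping Srxn1 at 21.2 and 13.7, to 81.2 and 47.0 in knockout, above Gclc at 33.2 and 29.5. Gclc at 39.4 and 29.5 and Txnrd1 at 33.7 and 24.9 CPM per kilobase overlapped in wild type. Slc7a11 was lowest in all 4 libraries, between 0.460 and 2.28 CPM per kilobase. Exons of every annotated isoform are counted in these lengths, so genes with long unused exons are understated. For Gpx2 the exon length was 3222 bases, the whole span of the gene, so its place in this order may be too low.

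The 2 libraries of each genotype differed in their smooth muscle and fibroblast markers. Smooth muscle markers (Acta2, Myh11, Des, Tagln, Actg2 and Cnn1) summed to 323 CPM in wild type 1 and 2006 CPM in wild type 2, and to 430 CPM in knockout 1 and 2084 CPM in knockout 2. Fibroblast markers summed to 44.3 and 470 CPM in the +/+ pair versus 62.1 and 441 CPM in the -/- pair. A comparison chosen after these values were seen set the 2 libraries of a genotype side by side. All 10 members were higher in the library with the lower smooth muscle sum in both genotypes, against 38.4% of all genes tested. The median ratio of the low-muscle to the high-muscle library over the members was 1.34 in wild type and 1.43 in knockout, beside 1.06 and 0.992 over all genes tested. It ran from 1.07 for Gstm1 to 1.60 for Slc7a11 in wild type, and from 1.07 for Nqo1 to 2.49 for Slc7a11 in knockout. Summed chief cell markers were also higher in the second library of each genotype, at 77408 and 181082 CPM in the +/+ pair versus 3004 and 94963 CPM in the -/- pair. Their part in the spread of the members was not tested.

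**Figure D3:**
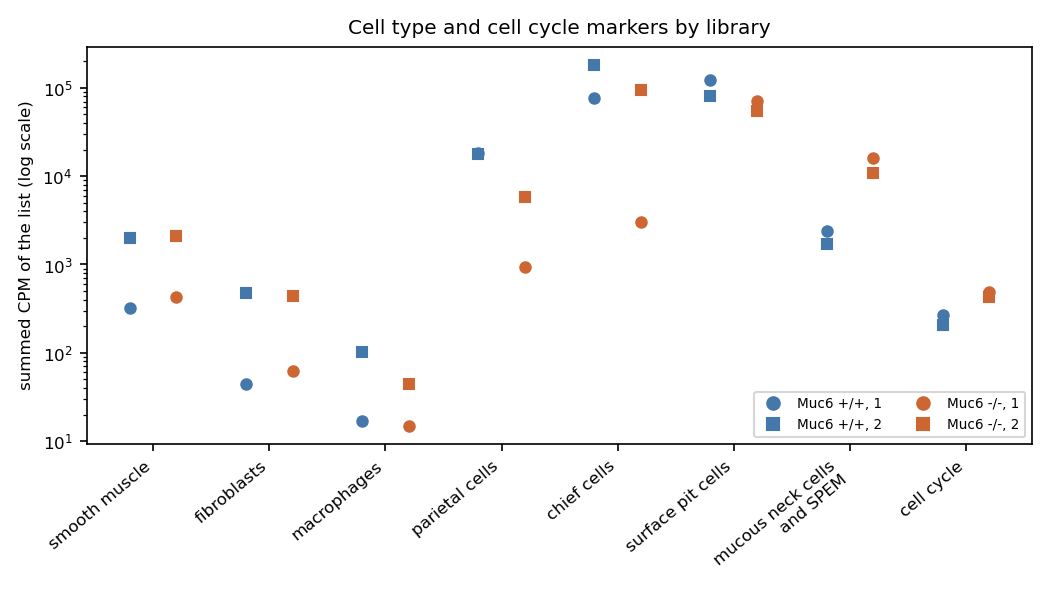
Summed normalised read counts (CPM, log axis) of 8 marker lists in each library, with blue for Muc6 +/+, orange for Muc6 -/-, circles for library 1 and squares for library 2. Smooth muscle, fibroblast, macrophage and chief cell sums are lower in library 1 of both genotypes. Surface pit, neck and metaplasia, and cell cycle sums are higher in library 1 of both genotypes. Parietal sums are lower in knockout, and neck and metaplasia sums are higher in knockout.

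The regulators of the pathway were examined as a list of 11 genes, all tested. The counts without overlap in this list and those that follow stand beside 26.3% of all genes tested that were higher and 23.8% that were lower. By edgeR 0 of them passed, as in every list below, with 1 higher and 1 lower at an unadjusted p below 0.05, and DESeq2 called 0. Without overlap 2 were higher and 5 lower, or 3 and 4 when the 20 most abundant genes were left out of the library sizes. Nfe2l2 itself stood at 511 and 391 CPM in the +/+ pair versus 441 and 399 CPM in the -/- pair (log2 fold change -0.10 ± 0.23, SE, n = 2 libraries each). Keap1, which encodes the repressor of NRF2, stood at 47.8 and 38.7 CPM against 49.4 and 52.2 CPM. Its values did not overlap, though wild type 1 and knockout 1 were close. Bach1, a repressor that competes for the same elements, stood at 47.6 and 56.6 CPM against 30.9 and 39.3 CPM, lower without overlap (-0.57 ± 0.19). The related factor Nfe2l3 stood at 7.91 and 7.03 CPM against 12.8 and 14.7 CPM, and Nfe2l1 at 185 and 164 CPM against 143 and 144 CPM. Transcript levels do not measure NRF2 protein, which is set mainly by its degradation.

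Of 17 genes of glutathione supply and recycling, 2 were higher and 8 lower without overlap, beside 26.3% and 23.8% of all genes tested, with a median log2 fold change of -0.27. These counts were 4 and 8 with upper-quartile factors, and 4 and 7 when the 20 most abundant genes were left out of the library sizes. DESeq2 called 1, Ggt6, a gamma-glutamyltransferase family gene, at 0.726 and 0.260 CPM in the +/+ pair versus 7.71 and 4.58 CPM in the -/- pair. Hagh, the glyoxalase that releases glutathione from lactoylglutathione, stood at 41.5 and 41.1 CPM against 19.5 and 27.0 CPM. Cth, which makes cysteine from cystathionine, stood at 25.5 and 21.7 CPM against 7.08 and 14.0 CPM. Among the 5 tested of 7 further glutathione peroxidases, 0 were without overlap, or 1, higher, both with upper-quartile factors and when the 20 most abundant genes were left out of the library sizes. Gpx5 had 0 counts in all libraries.

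Of the 23 other glutathione transferases, all tested, 12 were higher and 5 lower without overlap, with a median of 0.24, beside 26.3% and 23.8% of all genes tested. DESeq2 called Gstm3, Gstt2 and Mgst1 higher and Gstk1 and Gsta2 lower. Mgst1, a membrane-bound microsomal transferase with peroxidase activity, stood at 17.5 and 17.0 CPM in the +/+ pair versus 102 and 63.4 CPM in the -/- pair (fitted log2 change 2.27 ± 0.28, SE, n = 2 libraries each; adjusted p = 0.181 in edgeR). Gstt2, of the theta class, stood at 14.4 and 12.0 CPM against 38.3 and 28.9 CPM. Gstk1, the mitochondrial and peroxisomal kappa-class gene, stood at 112 and 82.6 CPM against 24.7 and 29.3 CPM (-1.85 ± 0.22; adjusted p = 0.180 in edgeR).

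The 7 mu-class genes form a cluster with Gstm1 on chromosome 3, between 107895821 and 108044894. Gstm1, Gstm2, Gstm3, Gstm4 and Gstm6 were higher without overlap, and Gstm5 and Gstm7 lower, and the counts were 5 higher and 2 lower under each of the 4 scalings tried. Gstm3 stood at 5.45 and 4.32 CPM in the +/+ pair versus 57.0 and 22.2 CPM in the -/- pair, and Gstm6 at 6.66 and 7.14 CPM against 12.6 and 13.4 CPM. Gstm2 stood at 65.2 and 72.5 CPM against 140 and 79.9 CPM, and Gstm5 at 25.6 and 30.3 CPM against 13.1 and 20.2 CPM. Members of this family are similar in sequence and the counts are estimates that can share a read among genes, so the values of single genes in the cluster are uncertain. Of the alpha class, Gsta1 stood at 1791 and 1267 CPM against 1518 and 891 CPM and overlapped, as Gsta4 did. Gsta2 stood at 45.0 and 35.0 CPM against 8.52 and 15.2 CPM, and Gsta3 overlapped.

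**Figure D4:**
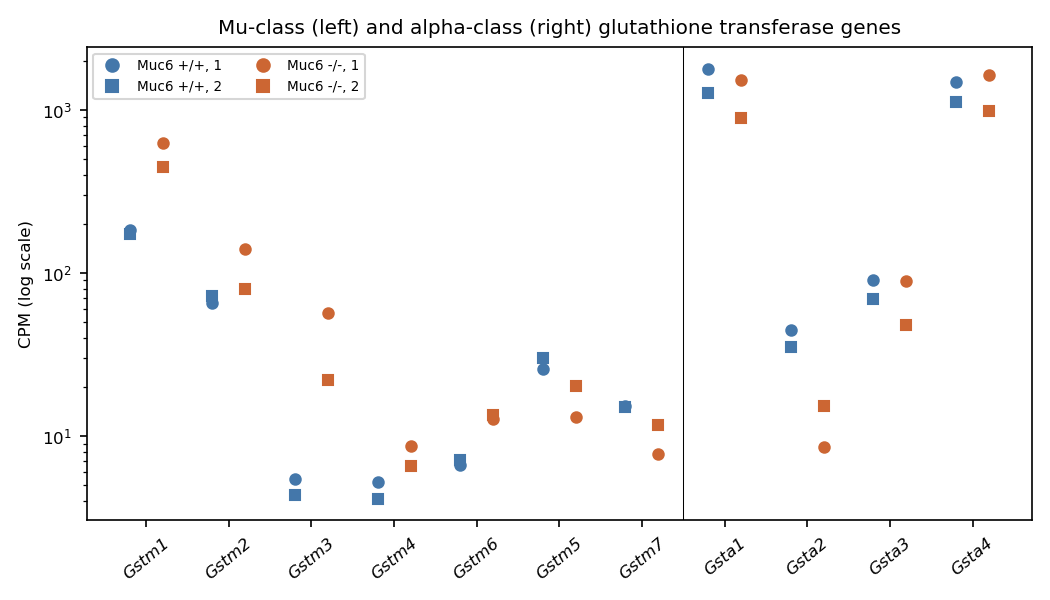
Normalised read counts (CPM, log axis) of the 7 mu-class genes (left of the line) and the 4 alpha-class genes (right), with blue for Muc6 +/+, orange for Muc6 -/-, circles for library 1 and squares for library 2. In knockout 5 mu-class genes lie higher and 2 lower, and Gsta1 and Gsta4 overlap.

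Of 13 thioredoxin and peroxiredoxin genes, 4 were higher and 6 lower without overlap, but 5 and 3 when the 20 most abundant genes were left out of the library sizes. Prdx4, the peroxiredoxin of the endoplasmic reticulum, stood at 38.3 and 37.4 CPM in the +/+ pair versus 58.9 and 57.1 CPM in the -/- pair, with the libraries of each genotype close together. Prdx6, which uses glutathione as its reductant, stood at 96.5 and 103 CPM against 238 and 152 CPM. Prdx5, largely mitochondrial and peroxisomal, stood at 253 and 232 CPM against 150 and 173 CPM. DESeq2 called 0 genes of this list.

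NADPH feeds both arms. Of 8 supply genes, 3 were higher and 1 lower without overlap (4 and 2 when the 20 most abundant genes were left out of the library sizes). Idh1, the cytosolic isocitrate dehydrogenase, stood at 144 and 112 CPM in the +/+ pair versus 465 and 232 CPM in the -/- pair (log2 fold change 1.44 ± 0.41, SE, n = 2 libraries each). Its mitochondrial counterpart Idh2 stood at 259 and 265 CPM against 60.0 and 123 CPM (-1.52 ± 0.40), and DESeq2 called both. Pgls, of the pentose phosphate pathway, stood at 30.9 and 28.1 CPM against 41.6 and 42.5 CPM.

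Superoxide and peroxide are also removed without thiols. Cat, catalase, stood at 268 and 263 CPM in the +/+ pair versus 72.7 and 114 CPM in the -/- pair, and Sod2, the mitochondrial superoxide dismutase, at 182 and 166 CPM against 72.9 and 105 CPM. DESeq2 called both lower, and the other 2 genes of this list of 4 overlapped. Beside Idh2, Cat, Sod2 and Gstk1, the parietal list, of cells rich in mitochondria, was lower in both knockout libraries with the sums given above. All 13 mitochondrial transcripts were lower without overlap, summing to 105874 and 95064 CPM against 54386 and 48475 CPM. The part of parietal cells in these values was not tested.

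Further genes often named as NRF2-linked, 25 in the list and 23 tested, had 3 genes higher and 11 lower without overlap, while 9 overlapped, with a median of -0.28. Over all genes tested, 26.3% were higher and 23.8% lower without overlap. DESeq2 called Ephx1 higher and Cbr1, Akr1b3, Aldh1a1 and Ptgr1 lower. Ephx1, microsomal epoxide hydrolase, stood at 45.1 and 44.4 CPM in the +/+ pair versus 224 and 141 CPM in the -/- pair (fitted log2 change 2.03 ± 0.28, SE, n = 2 libraries each; adjusted p = 0.204 in edgeR). Aldh1a1, a retinal dehydrogenase, stood at 739 and 502 CPM against 90.8 and 169 CPM (-2.25 ± 0.43; adjusted p = 0.212 in edgeR). Akr1b3, aldose reductase, stood at 158 and 128 CPM against 60.0 and 67.3 CPM.

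In haem and iron handling, 2 of 9 genes were higher and 4 lower without overlap. Tfrc, the transferrin receptor through which cells take up iron, stood at 86.8 and 62.1 CPM in the +/+ pair versus 499 and 651 CPM in the -/- pair (fitted log2 change 2.95 ± 0.30, SE, n = 2 libraries each; adjusted p = 0.178 in edgeR). Fth1, the ferritin heavy chain that stores iron, stood at 1354 and 1282 CPM against 522 and 695 CPM (-1.12 ± 0.26), and DESeq2 called both. Hmox2, the constitutive haem oxygenase, stood at 46.4 and 45.2 CPM against 26.8 and 33.5 CPM. The count ratio of Hmox1 to Hmox2 was 0.324 and 0.209 in the +/+ pair versus 0.634 and 0.345 in the -/- pair, higher without overlap. Wild type 1 and knockout 2 were close in it. Hmox1 itself overlapped and Hmox2 was lower without overlap, so the ratio does not show that Hmox1 was higher.

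Slc7a11 is also a target of ATF4, the factor of the amino acid and stress response, and 11 genes of that response were read beside it. Without overlap 2 were higher and 2 lower, or 2 and 1 both with upper-quartile factors and when the 20 most abundant genes were left out of the library sizes. The median log2 fold change of the list was 0.30, with 7 genes fitted higher and 4 lower. Psat1, of serine synthesis, stood at 13.5 and 16.8 CPM in the +/+ pair versus 26.6 and 30.0 CPM in the -/- pair and was the 1 gene of the list that DESeq2 called. Sesn2 stood at 10.1 and 11.8 CPM against 13.8 and 14.2 CPM, and Asns, asparagine synthetase, at 137 and 162 CPM against 69.7 and 126 CPM. Atf4 itself stood at 190 and 164 CPM against 135 and 152 CPM, lower without overlap. The part of ATF4 in the Slc7a11 values was not tested.

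**Figure D5:**
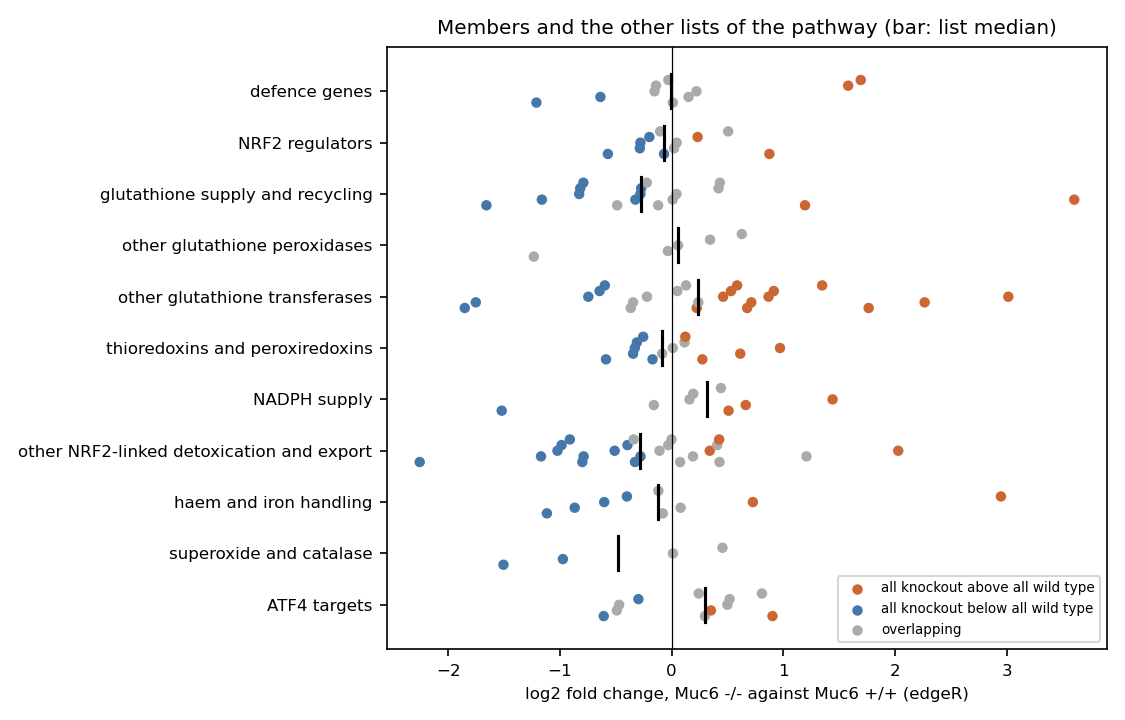
Fitted log2 fold change in Muc6 -/- against Muc6 +/+ libraries (horizontal axis) of every tested gene in the 10 defence genes and 10 further lists, with bars for list medians. Orange points were higher and blue points lower in both knockout libraries than in both wild-type libraries, and grey points overlapped; each list except the other peroxidases and superoxide and catalase holds points of both colours.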

How the data were processed

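Per the labels, RNA of corpus mucosa was purified on columns and libraries were made with a stranded kit for polyadenylated RNA. The build was mm10 per the submitters' processing notes; aligner, counter, annotation and use of strand: not given in the sources used here. What the authors deposited are estimated counts for each gene without normalization; 35.0% of nonzero values were not whole, so the deposited expected counts were rounded before testing. Symbols, positions and exon lengths came from GENCODE M21, which matched 34582 of 34866 rows by identifier without version.

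Knockout was compared with wild type by edgeR 4.0.16 in R 4.3.3 (TMM factors, filterByExpr with a minimum of 10 counts, robust quasi-likelihood fit and test, Benjamini-Hochberg adjustment over 14067 genes, threshold 0.05). The standard error is the log2 fold change divided by the square root of F. CPM use TMM-scaled library sizes. No exact permutation test was run, since 2 libraries against 2 cannot reach a two-sided p below 0.333. DESeq2 1.42.0, limma 3.58.1, other scalings and filters, a replicate block and leaving out each library were alternatives. The fit was tested on simulated counts.

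Named genes were the 10 members, Muc6, Nfe2l2, Keap1, Bach1 and, in each list, up to 3 genes with the smallest p among those with at least 1 CPM and no overlap. Slc3a2, Gpx1, Atf4, the Gstm and Gsta genes, genes named only as called by DESeq2, and the count ratios were chosen after their values were seen. Members and lists were chosen with earlier results of these data known.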

Additional observations from a re-analysis of the deposited data

How the results depend on the processing

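The precision of every value is limited by 2 libraries a genotype. Adjusted calls over all genes numbered 0, but 946 by DESeq2, 9 without a count filter and 0 to 851 when each library was left out, the 851 without knockout 2 and 9 without knockout 1. Called members numbered 0, but 2 by DESeq2 and 0 to 2 with libraries left out, the 2 being Gpx2 and Gstm1 without knockout 2. A genotype left with 1 library is assumed to vary like the other. Members without overlap numbered 4, and 6 to 8 with libraries left out, since fewer values can overlap. Signs turned for 6 genes near 0. Leaving out each library gave log2 fold changes of -0.34 to 0.091 for Gclc, -0.33 to 0.21 for Txnrd1, -0.12 to 0.60 for Hmox1, -0.35 to 0.51 for Srxn1, -0.45 to 0.29 for Gsta4 and -0.29 to 0.11 for Nfe2l2. Library sizes without the 20 most abundant genes gave 0.017 for Txnrd1. Gsta4 was at -0.012 by limma with voom, -0.0041 with relative log expression factors and -0.025 without a filter; the cause was not tested. Of 532 refitted values of 38 named genes, 15 turned sign and 32 passed the threshold where they had not, 16 by DESeq2 and 16 without knockout 2. The labels give libraries 1 and 2 in both genotypes but no pairing. With the number as a replicate block, 0 genes and 0 members passed, the members' median was -0.027, Gsta4 was at -0.022 and Gpx2 and Gstm1 had adjusted p of 0.116 and 0.122 by edgeR. Differences between the libraries of a genotype correlated at 0.528 over 14067 genes, a hint from the data and not the design.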
